A study of Mus musculus with 2 samples.

Results

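Mir10a and Mir10b, the miR-10 genes of the HoxB and HoxD clusters, were described across small RNA libraries of the mouse embryonic neural tube. They were taken by gene identifier (ENSMUSG00000065519.1 for Mir10a and ENSMUSG00000065500.2 for Mir10b) and are 2 of the 1973 miRNA genes with a row in the count files. Both were present in both libraries and passed the minimum of 10 summed counts. The tissue was the neural tube of healthy B6NCrl embryos at 11.5 days (E11.5), with no genetic change or treatment named, and there was 1 group of 2 libraries that the labels number as biological replicates. The labels give them separate biosamples and the same donor entry, so how far the libraries are independent is not known and each SD describes the spread between them. Replicate 1 was a pool from 109 embryos and replicate 2 a pool from 88, with both sexes in each pool. Pooling of whole neural tubes leaves no record of position along the body axis or of single embryos. A level is given as CPM, the reads on the gene's own strand per 1000000 such reads over all miRNA genes. Replicate 1 held 3708662 of these reads and replicate 2 held 4055883.

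MicroRNAs (miRNAs) are cut from hairpin transcripts and guide the silencing of mRNAs that pair with their seed, bases 2 to 8 of the mature strand. Hox genes encode transcription factors that set identity along the head-to-tail axis, in the spinal cord and hindbrain among other tissues, and they lie in clusters whose order matches the order of their expression. The miR-10 genes are embedded in these clusters and are old members of them, shared by insects and vertebrates. In zebrafish, miR-10 is known to repress Hox genes of neighbouring paralog groups.

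The mature sequences show how alike the genes are, and why their reads can still be assigned. They are printed 5′ to 3′ from RefSeq (GRCm38.p6), with the seed in capitals.
mmu-miR-10a-5p: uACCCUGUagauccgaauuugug
mmu-miR-10b-5p: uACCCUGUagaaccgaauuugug
mmu-miR-10a-3p: cAAAUUCGuaucuaggggaaua
mmu-miR-10b-3p: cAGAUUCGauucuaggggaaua
The 5p strands have 23 bases each, have the same seed and match at 22 bases. They differ by U12A (miR-10a base, position from the 5′ end, miR-10b base). The 3p strands match at 19 of 22 bases and differ by A3G, U9A and A10U, the first of which lies in the seed. Among the 1679 mature miRNA names in the RefSeq table, miR-10a-5p and miR-10b-5p are the 2 that carry this seed.

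The hairpins, printed with both mature strands in capitals, differ more than the strands they release.
Mir10a: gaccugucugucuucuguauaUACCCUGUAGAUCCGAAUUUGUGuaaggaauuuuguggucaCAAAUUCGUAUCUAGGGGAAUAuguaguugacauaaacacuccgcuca
Mir10b: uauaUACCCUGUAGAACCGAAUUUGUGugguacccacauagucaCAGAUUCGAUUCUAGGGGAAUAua
The annotated Mir10a hairpin has 110 bases and that of Mir10b 68, with 18 and 17 bases between the mature strands. The longest run they share is 15 bases (uauauacccuguaga) and ends just before base 12 of the 5p strand. This was also the longest run that either shares with any other hairpin of the table. A 5p read of either gene that covers base 12 thus carries a base that tells the genes apart. How mismatches were treated in alignment is not stated by the labels or files. Counts are per hairpin gene, so 5p and 3p reads are summed in them and the strand that was read could not be separated.

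Both genes lie at a Hox4 gene, Mir10a upstream of Hoxb4 and Mir10b inside Hoxd4. Mir10a occupies chromosome 11 from 96317165 to 96317274 on the plus strand (GRCm38, also called mm10; GENCODE M21). Among the transcript types searched, it lies between genes, with the end of Hoxb5 11044 bases upstream and the start of Hoxb4 993 bases downstream. Mir10b occupies chromosome 2 from 74726070 to 74726137 on the plus strand. It ends 937 bases before the start of the shorter coding transcript of Hoxd4, and it lies within introns of both longer Hoxd4 transcripts, 1 of them coding, and of the longest Hoxd3 transcript. The types searched were protein-coding, antisense, lincRNA, miRNA, processed transcript, retained intron and nonsense-mediated decay. No exon of another gene overlaps either hairpin among these types, and other types were not searched.

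**Figure D1:**
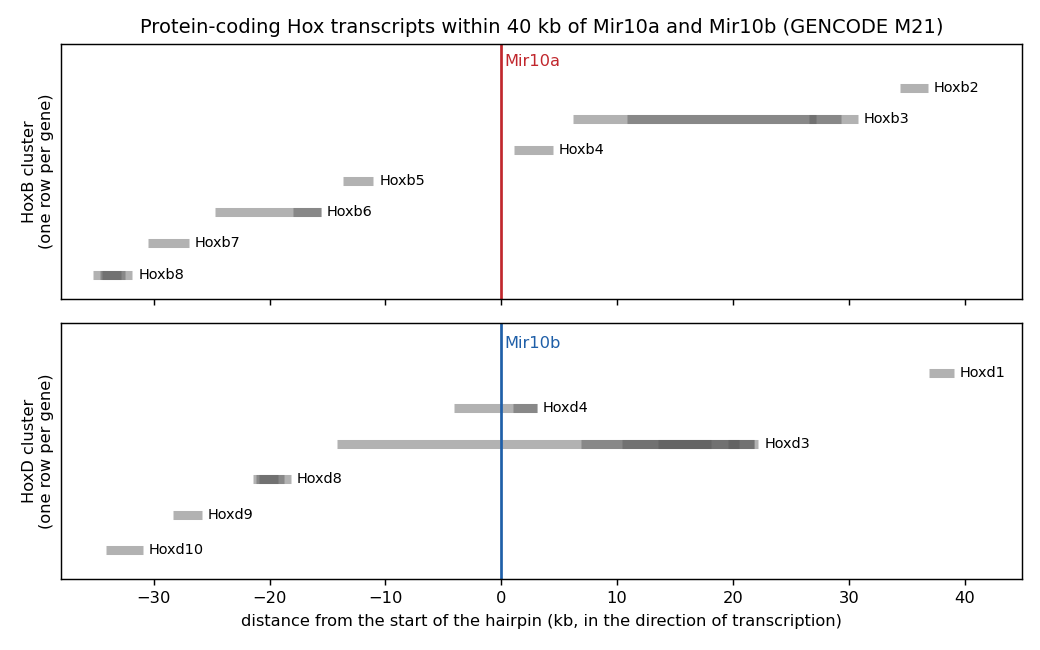
Protein-coding Hox transcripts within 40 kb of Mir10a (top) and Mir10b (bottom), placed by distance from the hairpin start in kb; each row is 1 gene, bars are its transcripts and darker parts are where transcripts overlap. Hoxb4 starts just downstream of Mir10a, and Mir10b lies inside long transcripts of Hoxd4 and Hoxd3.

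By reads assigned to 1 place, Mir10a was the most abundant miRNA gene of both libraries and Mir10b the second. Reads mapped to several places, 2153217 in replicate 1 and 2088167 in replicate 2, were counted for no gene. They outnumber the reads of Mir10a, and genes with several copies, such as those of let-7, miR-9, miR-124 and miR-125b, may lose reads to them, so the rank among all miRNAs was not tested. Mir10a had 515679 own-strand reads in replicate 1 and 677334 in replicate 2, or 139047 and 167000 CPM (mean 153024 ± 19766, SD, n = 2). Mir10b had 467313 and 591514 reads, or 126006 and 145841 CPM (mean 135923 ± 14026). Replicate 2 was the higher library for both genes, and the level of Mir10b in replicate 2 lay above that of Mir10a in replicate 1, so their ranges overlapped.

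Counted together, the genes held 26.5% of the reads assigned to miRNA genes in replicate 1 (95% Wilson interval 26.5 to 26.6) and 31.3% in replicate 2 (31.2 to 31.3). These intervals, like all others here, cover counting error only. Of every read of the library, unmapped reads and reads mapped to several places included, they were 11.5% and 16.6%. The gene with the third highest level, Mir99a, held 6.35% and 7.82% of own-strand reads. Its highest value, 78209 CPM, lay below the lowest value of Mir10b, so the ranges did not overlap. The median gene with any read stood at 7.55 CPM in replicate 1 (657 genes) and 6.16 CPM in replicate 2 (650 genes).

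**Figure D2:**
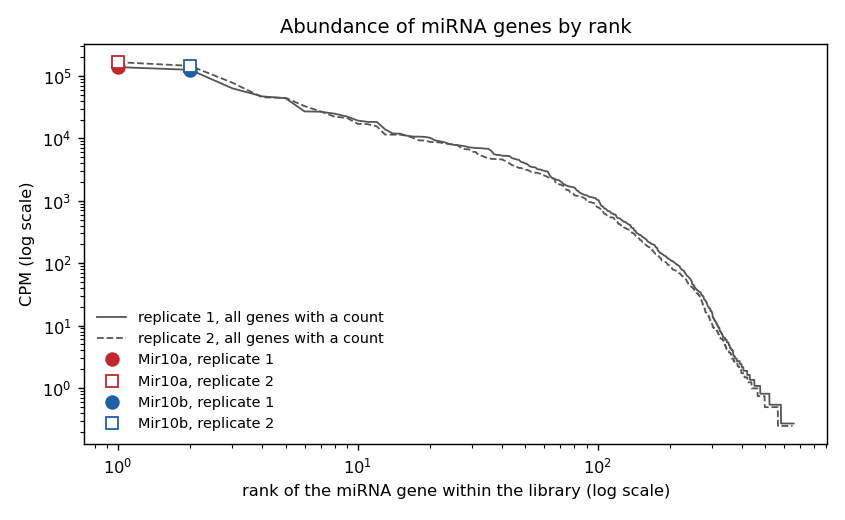
CPM against rank within the library for all miRNA genes with a read, both axes on log scales; filled circles are replicate 1 and open squares replicate 2. Mir10a and Mir10b take ranks 1 and 2 in both libraries, and the third gene stands at 63508 and 78209 CPM.

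Almost all reads at these loci fell in the column read as own-strand. The columns carried no names and were read from their values, so the strand itself was not tested. Opposite-strand reads numbered 1 and 2 at Mir10a, and 0 and 1 at Mir10b, in replicates 1 and 2. A count of 0 allows up to 3 counts. Over all miRNA genes, opposite-strand reads numbered 78467 and 68621. Low counts were not particular to the miR-10 genes, since Mir99a, Mir99b and Mir100 had 0 opposite-strand reads in both libraries.

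Mir10a exceeded Mir10b in each library by a small margin. The ratio of their counts was 1.10 in replicate 1 (exact 95% interval 1.10 to 1.11) and 1.15 in replicate 2 (1.14 to 1.15). This ratio does not depend on library size, and the 5p strands are equally long, so counts were compared without division by length. Its intervals did not overlap between the libraries, a difference of 1.04-fold. They treat reads as independent, and any copies made by PCR make them too narrow. How well each miRNA was captured by the library chemistry was not measured, so the ratio is one of counts. With 2 libraries an exact two-sided permutation test of Mir10a against Mir10b within libraries cannot give a p under 0.5.

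The miRNA genes of other Hox positions were far less abundant. Mir615 lies in an intron of Hoxc5, and the Mir196 genes lie among the posterior Hox genes of the A, B and C clusters, where miR-196 is known to repress Hoxb8. Mir615 stood at 13954 and 11497 CPM in replicates 1 and 2. Mir196b stood at 10590 and 11529 CPM, Mir196a-2 at 1551 and 1206 CPM and Mir196a-1 at 41.3 and 43.1 CPM. All 8 of these values lay below both values of Mir10a and of Mir10b. The copies Mir196a-1 and Mir196a-2 give the same 5p strand, so reads of it may map to several places, and such reads were counted for no gene.

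Mir10a and Mir10b together held 10.1 times the counts of these 4 genes in replicate 1 and 12.9 times in replicate 2. The sum of the 4 genes lacks any reads of the Mir196a copies that map to several places, so these values may be too high. Mir10a held 9.96 and 14.5 times the counts of Mir615, and 13.1 and 14.5 times those of Mir196b. The ratio to Mir615 thus moved more between the libraries than the ratio to Mir196b did. By CPM, Mir615 was higher in replicate 1 (log2 ratio 0.28, but -0.0083 with TMM scaling and -0.0058 per read of the whole library), whereas Mir196b was higher in replicate 2 (-0.12, and -0.41 with TMM scaling, a scaling by the trimmed mean of M values).

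The relatives of miR-10 compared here, not ranked by sequence over all miRNAs, are the miR-99, miR-100 and miR-125 strands. They are known to lie in clusters with let-7 genes outside the Hox clusters. They are printed with the seed in capitals to show that none of them shares the seed of miR-10.
mmu-miR-99a-5p: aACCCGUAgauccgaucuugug
mmu-miR-100-5p: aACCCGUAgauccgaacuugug
mmu-miR-99b-5p: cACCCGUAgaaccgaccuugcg
mmu-miR-125b-5p: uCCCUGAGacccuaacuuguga
mmu-miR-125a-5p: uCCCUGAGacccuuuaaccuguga
With base 6 left out, miR-10a-5p differs from miR-100-5p by U1A and U17C, positions counted in the shortened strand. The shortened miR-10a-5p differs from miR-99a-5p by U1A, A16U and U17C. The base that separates miR-10a from miR-10b also varies here: miR-99a-5p and miR-100-5p have the base of miR-10a at that place, and miR-99b-5p has the base of miR-10b.

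These relatives spanned a wide range of levels, all below both miR-10 genes. Mir99a stood at 63508 and 78209 CPM, Mir100 at 26798 and 32954 CPM and Mir99b at 22489 and 21351 CPM. Mir125a stood at 5286 and 3210 CPM. Mir125b-1 had 1199 and 962 CPM, and Mir125b-2 had 721 and 732 CPM. The Mir125b copies give the same 5p strand, and reads of it that map to both are in neither count. Mir10b held 1.98 times the counts of Mir99a in the first library and 1.86 times in the second. The miR-10 pair held 2.35 and 2.36 times the counts of Mir99a, Mir99b and Mir100 together, a ratio that needs no library total.

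**Figure D3:**
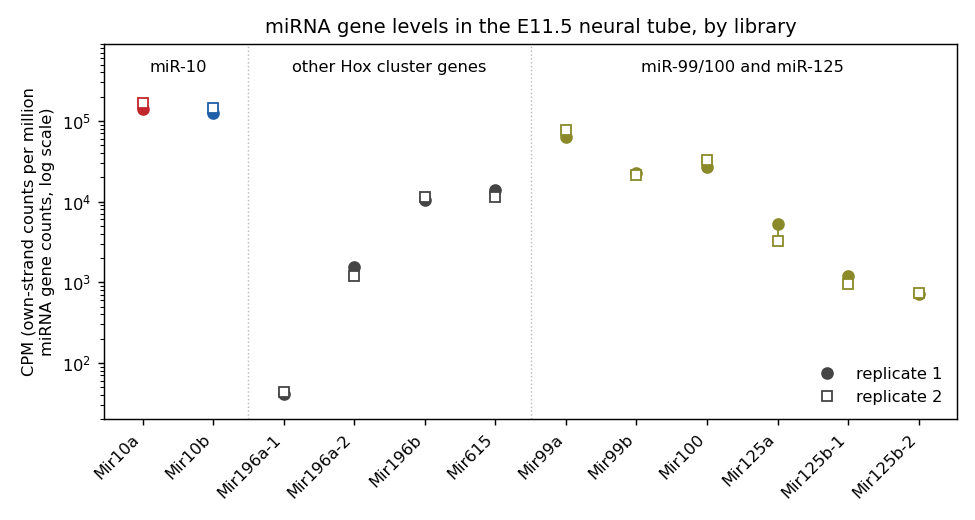
CPM on a log scale for the miR-10 genes, the other Hox cluster genes and the miR-99, miR-100 and miR-125 genes; filled circles are replicate 1, open squares replicate 2, and lines join the 2 values of a gene. Both miR-10 genes sit at 126006 CPM or more, above every other gene shown.

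Both miR-10 genes were higher in replicate 2. By CPM, Mir10a was 1.20-fold higher there, a log2 ratio of replicate 1 over replicate 2 of -0.26 (counting SE 0.0027), and Mir10b 1.16-fold higher, a log2 ratio of -0.21 (SE 0.0028). Each passed a two-sided exact binomial test against counting error, with Benjamini-Hochberg adjusted p below 1e-300 over the 444 genes tested. The same test called 53.2% of these genes in either direction and 7.88% as higher in replicate 2, which included both miR-10 genes. The median gene leaned the other way, with a log2 ratio of 0.27. Relative to that median, Mir10a stood at -0.53 and Mir10b at -0.48. The log2 ratio was lower than that of Mir10a for 48 of the 444 genes and lower than that of Mir10b for 55. Among the 99 genes with a mean of at least 1000 CPM, both miR-10 genes included, it was lower for 8 and 9. Mir99a and Mir100 also passed as higher in replicate 2 (-0.30 each), whereas Mir99b (0.07, but -0.21 with TMM scaling and below 0 under the other scalings tried), Mir125b-1 and Mir125a (0.32 and 0.72) passed as higher in replicate 1 and Mir125b-2 (-0.02) did not pass. With TMM scaling Mir125b-1 stood at 0.03, within its counting SE of 0.032, and Mir125b-2 at -0.31 (SE 0.038), whereas Mir125a stood at 0.43.

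The test sets these libraries, and no conditions, against counting error, which is tiny for genes this deep. The SD over the libraries was 12.9% of the mean for Mir10a and 10.3% for Mir10b, or 99.8 and 75.1 times the counting error. The spread over all genes beyond counting error, edgeR's common dispersion from these same libraries, came to a coefficient of variation of 17.6%. It was estimated with TMM scaling, whereas the SDs are by CPM, so it cannot be set against them. With TMM scaling the library difference was larger, at 1.47-fold for Mir10a and 1.41-fold for Mir10b. In bulk tissue, a difference in the number of cells that make an RNA and in the RNA made per cell cannot be told apart.

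**Figure D4:**
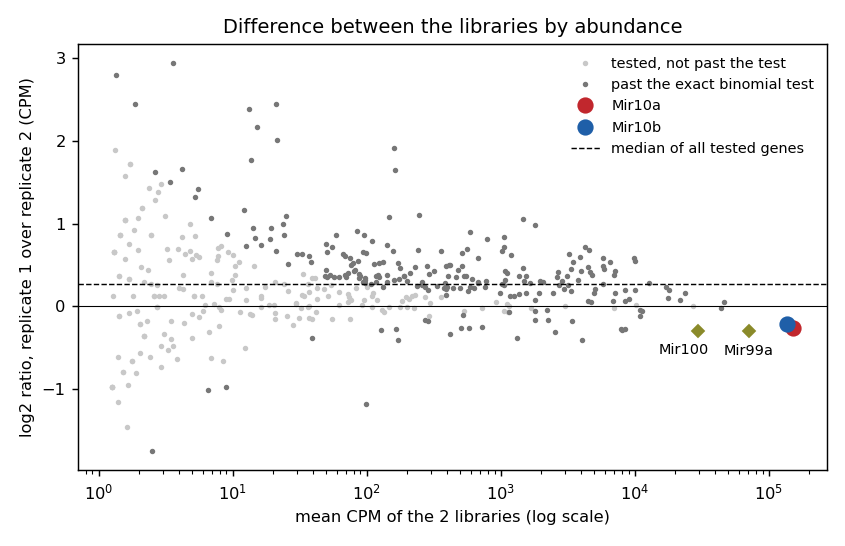
Log2 ratio of replicate 1 over replicate 2 against mean CPM (log scale) for the 444 genes tested; dark points passed the exact binomial test, the solid line is 0 and the dashed line the median gene at 0.27. Mir10a at -0.26 and Mir10b at -0.21 lie below 0, next to Mir99a and Mir100 at -0.30.

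The size of the library difference, but not its direction, changed with the scaling. With TMM scaling Mir10a was 1.47-fold and Mir10b 1.41-fold higher in replicate 2. With DESeq2's size factors the folds were 1.41 and 1.36, and per read of the whole library they were 1.46 and 1.41. With both genes left out of the total, they were 1.28 and 1.24. The share of the calls that were higher in replicate 2 also moved, from 35 of 236 by CPM to 96 of 177 with TMM scaling. Since Mir10a and Mir10b make up much of the CPM total, higher counts of these genes lower the CPM of every other gene by arithmetic. With both left out of the total, the median log2 ratio of all tested genes was 0.17, against 0.27 by CPM. Of 216 calls, 52 were then higher in replicate 2. Why the median gene leaned to replicate 1 was not tested.

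**Figure D5:**
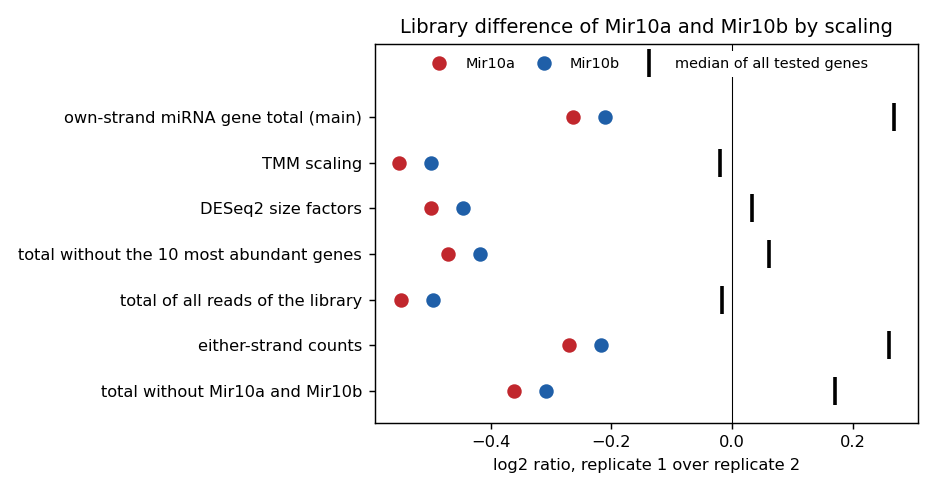
Log2 ratio of replicate 1 over replicate 2 for Mir10a and Mir10b and the median of all tested genes (black bars) under 7 scalings or strand choices. Both genes stay below 0, from -0.26 to -0.55 for Mir10a and from -0.21 to -0.50 for Mir10b. A rescaling moves all genes alike, so the distance to the median is fixed (-0.533 for Mir10a and -0.479 for Mir10b). Either-strand counts change the counts and the genes tested (454 against 444), and the distances there are -0.530 and -0.477.

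Among the other 97 genes with a mean of at least 1000 CPM, the 5 with a library ratio nearest the mean of the miR-10 genes (-0.24) were Mir183 (-0.27), Mir130b (-0.28), Mir487b (-0.28), Mir100 (-0.30) and Mir96 (-0.18). Mir183 and Mir96 lie in one cluster known from sensory organs, and Mir487b belongs to the imprinted Dlk1-Dio3 array. The ratio was not shared throughout either. Mir182 of the sensory cluster stood at -0.05, and genes of the array differed, such as Mir411 (0.46), Mir127 (0.32) and Mir434 (-0.06). The measure rests on 2 libraries and describes them only. The levels of the 5 nearest genes ran from 3433 CPM for Mir96 to 29876 CPM for Mir100, below those of the miR-10 genes.

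The tissue label was set against marker miRNAs. Of 9 neural marker genes, 8 had a row, and they summed to 0.850% of counts in replicate 1 and 0.738% in replicate 2. Mir92b, known from neural progenitor cells, led them at 5250 and 4708 CPM. Mir137 followed at 2169 and 1761 CPM and Mir153 at 864 and 700 CPM. The neuronal Mir124a copies held 1.23 to 11.9 CPM each and the measured Mir9 copies 2.16 to 200 CPM. Copies with one mature strand, however, lose reads that map to several places. Such reads formed 25.2% and 27.3% of each library. Markers of other tissues were present, with mesenchyme genes at 2.42% and 1.79% (6 of 6 measured), endothelial Mir126a at 2.49% and 2.23%, epithelial genes at 0.368% and 0.339% (5 of 5), muscle genes at 0.146% and 0.0930% (6 of 7) and blood genes at 0.0786% and 0.0559% (3 of 3). Both Mir133a genes of muscle were at 0, but they are copies too and may lose reads in the same way, so this does not show absence. Liver Mir122 held 7.82 and 7.89 CPM. By CPM these sums were higher in replicate 1 except for Mir122, opposite to the miR-10 genes. The muscle, blood and mesenchyme sums were higher in replicate 1 under all the scalings tried. A single gene carried the muscle sum, and the mesenchyme genes differed in their ratios. Mir206 held 5038 of the 5409 muscle counts in replicate 1, with a log2 ratio of 0.84, while muscle Mir208b was higher in replicate 2 (-1.18). In mesenchyme Mir214 held 44202 of the 89823 counts in replicate 1 and stood at 0.58. Mir140 (0.38) and Mir199a-2 (0.28) also lay above the median of all tested genes (0.27), and Mir143 (0.27) lay at it. Mir199b (0.22) and Mir199a-1 (0.09, from 36 and 37 counts) lay below it. Mir199a-1 and Mir199a-2 are copies as well and may lose reads that map to several places. The endothelial and epithelial sums were higher in replicate 2 with TMM scaling, DESeq2's size factors, the total without the 10 most abundant genes and the total of all reads. The neural sum was too, but without the 10 most abundant genes it was nearly equal (log2 ratio -0.0042). The part of the marker genes in the miR-10 difference was not tested.

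A target site for the seed shared by both genes, with an A after the seed match, reads ACAGGGTA. These letters were searched on the sense strand of the longest annotated 3′ UTR of each protein-coding gene in GENCODE M21. They occurred in 438 of 21045 genes (2.08%) and in 3 of 39 Hox genes (7.69%). The 3 sites are printed in DNA letters with the match in capitals, since they lie in Hox genes of paralog groups 1 and 3, on the Hox1 side of the position of the miR-10 genes.
Hoxa3: ctttgataagaaACAGGGTAtatgaac
Hoxb3: cttaacgtgaaaACAGGGTAtatttga
Hoxd1: cggaacaaatccACAGGGTAggtaagg
The capitals lie on chromosome 6 from 52169653 to 52169660 (minus strand) for Hoxa3. They lie on chromosome 11 from 96347302 to 96347309 for Hoxb3 and on chromosome 2 from 74764945 to 74764952 for Hoxd1, both on the plus strand. A match describes letters and no measured binding, no match says only that the letters are not in that window, and mRNA levels were not measured in these libraries.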

How the data were processed

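Small RNA under 30 nt was sequenced from pooled E11.5 neural tubes. Per the file headers, the deposited files hold raw counts of reads for each miRNA gene, made on mm10 with annotation GENCODE M4. The labels and files name no aligner, counter or trimming of adapters. Each library had 3 unnamed count columns, read from their values as either-strand, own-strand and opposite-strand reads, since the first equalled the sum of the others for every gene. Reads that named no gene formed 56.5% of replicate 1 and 47.0% of replicate 2 and stayed out of totals and tests. Reads mapped to several places (25.2% and 27.3% of reads) were among them.

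Symbols and positions came from GENCODE M21 by gene identifier (1894 of 1973 matched), and mature and hairpin sequences from RefSeq, where both genes matched. CPM used own-strand counts. An exact binomial test (two-sided, with the library totals as base) compared each gene's counts, with Benjamini-Hochberg adjustment across 444 genes whose counts summed to 10 or more and a threshold of 0.05, with a pseudocount of 0.5 counts in log2 ratios. Alternatives were other totals and strands, TMM, DESeq2's size factors, other filters and edgeR's exact test with the common dispersion. That dispersion was estimated with TMM scaling from both libraries as 1 group. A test between groups did not exist with 1 group, and the labels' separate pools, which share a donor entry, were taken as replicates, so p-values measure only the distance between these libraries. Named genes were both miR-10 genes, the other Hox cluster miRNAs, the miR-99, miR-100 and miR-125 genes, the 3 next in level, the 5 nearest in library ratio and the marker genes. The members and lists were chosen with earlier results of these data known. The number of per-sample columns not tied to a sample was 0. Versions were R 4.3.3, edgeR 4.0.16, DESeq2 1.42.0, Python 3.11.15, numpy 2.4.6, pandas 2.3.3, scipy 1.17.1 and matplotlib 3.10.9.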

Additional observations from a re-analysis of the deposited data

How the results depend on the processing

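Levels and shares moved with the base they were divided by, which cannot change the order of the genes. Reads mapped to several places were not assigned to genes, so their effect on the order was not tested. Per 1000000 reads of the whole library, Mir10a averaged 74464 and Mir10b 66024, and the pair took 14.0%. With reads mapped to several places added to the total, the values were 99107, 87998 and 18.7%. With the 10 most abundant genes left out of the total, they were 361153 and 320374. Either-strand counts and the total of genes with at least 10 summed counts moved levels and shares by less than the SD over the libraries. Single libraries gave 139047 to 167000 CPM for Mir10a, 126006 to 145841 CPM for Mir10b, 26.5% to 31.3% for the share and 1.10 to 1.15 for the ratio of Mir10a to Mir10b. edgeR's exact test with the common dispersion takes its spread from the same difference that it tests, so a gene that does not pass it says nothing about stability. With it, 8 of 444 genes passed in place of 236 (36 at an unadjusted p under 0.05), and the log2 ratios of -0.26 for Mir10a and -0.21 for Mir10b did not pass (adjusted p = 0.891 and 0.941). With TMM scaling as well, chosen after seeing the data, 8 genes passed and the ratios of -0.55 and -0.50 did not (edgeR exact test, unadjusted p = 0.128 and 0.168, adjusted p = 1 for both). The direction of both log2 ratios was the same in all the alternatives run, and the exact binomial test called both genes under every scaling, strand choice and filter tried with it. No paired analysis was possible because there is 1 group.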
